A study of Mus musculus with 3 samples.

Results

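The genes described here are the 5 NF-kB subunits Nfkb1, Nfkb2, Rel, Rela and Relb and 4 inhibitors that NF-kB itself is known to induce, Nfkbia, Nfkbid, Nfkbiz and Tnfaip3. They were taken by symbol from the gene table, which held all 9 among 27998 genes in each of 3 single-cell RNA libraries. The libraries were made from Foxp3+ regulatory T cells (Tregs) of adult mice of strain C.Cg-Foxp3tm2Tch/J, in which EGFP marks cells that express Foxp3, with 1 library each from back epidermis, dermis and lymph node. No treatment is named for any group, and all 3 carry the reporter allele. Epidermis and dermis were parted with thermolysin and dermis was further digested with collagenase, whereas lymph node was mashed. A sort for CD45+ CD3+ CD4+ GFP+ cells followed in each case. The kits were 10x Genomics 3′ v3 for both skin libraries and v2 for lymph node. Tissue, digestion and kit therefore cannot be told apart in any skin against lymph node comparison. The mix of cells from females and males also differed between the libraries, as described below, and its part in those comparisons was not tested. The sources used here do not give the number of animals behind a library.

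NF-kB proteins act as dimers that stay in the cytoplasm while bound by an inhibitor of the IkB family. Signals from antigen receptors, TNF family receptors and Toll-like receptors activate the IkB kinases, the inhibitor is degraded, and the dimer enters the nucleus, where it induces its own inhibitors among other genes. In Tregs, the subunit c-Rel, encoded by Rel, is known for its part in Foxp3 induction and thymic Treg development.

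On mm10, by the GENCODE annotation, the subunit genes lie at chr3:135584655-135691547 (Nfkb1), chr19:46304320-46312385 (Nfkb2), chr11:23736847-23770970 (Rel), chr19:5637483-5648130 (Rela) and chr7:19606217-19629438 (Relb). The inhibitor genes lie at chr12:55489410-55492647 (Nfkbia), chr7:30421732-30428746 (Nfkbid), chr16:55811375-55838899 (Nfkbiz) and chr10:19000910-19015657 (Tnfaip3). All 9 are protein-coding.

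Promoter bases were read from RefSeq on GRCm38.p6 to show what lies before the start sites of these genes, since transcripts of several of them differed together between the libraries. A window of 250 bases before the start was found for 6 of the 9 genes, with several start sites for some, and none was found for Nfkb1, Relb and Nfkbiz. The windows were searched on both strands for the 10-letter kappaB consensus, the sequence class that NF-kB dimers bind, and overlapping matches were all counted. The consensus matched in 5 of the 6 genes with a window, in 7 of their 11 windows, whereas 3.90% of 32841 windows and 4.46% of 27018 genes in the table held it. Capitals mark matched bases, the sequences run 5′ to 3′ on the strand of the gene, and only bases outside the annotated gene span are given for the longer stretches. Nfkbia and Rel are shown as genes whose transcripts were higher in both skin libraries, and Rela as the gene whose level differed least.
Nfkbia, chr12:55492648-55492897, minus strand: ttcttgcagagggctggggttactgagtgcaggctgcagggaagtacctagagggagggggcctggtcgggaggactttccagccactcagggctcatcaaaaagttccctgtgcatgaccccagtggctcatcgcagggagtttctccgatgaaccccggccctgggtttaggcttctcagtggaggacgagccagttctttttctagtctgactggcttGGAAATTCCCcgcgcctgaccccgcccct
Rel, chr11:23770971-23771219, minus strand: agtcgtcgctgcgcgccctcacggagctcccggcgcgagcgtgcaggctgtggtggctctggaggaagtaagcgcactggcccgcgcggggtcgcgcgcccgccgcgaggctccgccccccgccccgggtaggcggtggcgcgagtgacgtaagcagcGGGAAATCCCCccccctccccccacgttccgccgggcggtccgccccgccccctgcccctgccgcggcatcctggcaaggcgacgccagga
Rela, chr19:5637291-5637441, plus strand: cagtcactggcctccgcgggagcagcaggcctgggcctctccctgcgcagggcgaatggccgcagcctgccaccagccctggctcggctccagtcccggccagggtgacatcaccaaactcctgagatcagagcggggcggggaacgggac

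The match in Nfkbia lay 20 to 29 bases before its start, and that in Rel, where 3 matches overlapped, lay 82 to 92 bases before its start. The full 250 bases before the start of Rela held no match, which says only that these letters are not in that window. For the remaining genes, the matches are given with short flanks, because their start sites lie within the gene span of another annotated transcript. Tnfaip3 is shown with both of its matches, Nfkbid with 1 of its 2, and Nfkb2 with a stretch in which 3 matches overlap.
Tnfaip3, chr10:19015516-19015545, minus strand: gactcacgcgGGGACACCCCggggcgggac
Tnfaip3, chr10:19015411-19015432, minus strand: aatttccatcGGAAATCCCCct
Nfkbid, chr7:30422170-30422199, plus strand: gccccgccctGGGACTTCCCagagcaccac
Nfkb2, chr19:46304689-46304717, plus strand: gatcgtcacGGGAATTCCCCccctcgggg

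The first of these Tnfaip3 matches lay 116 to 125 bases before the start, close to a match of the AP-1 motif TGANTCA at 130 to 136 bases before the start, a motif held by 6.75% of all windows. A match describes the letters only, and binding was not measured in these libraries. Nfkb2, whose ratios to lymph node were 1.65 in epidermis and 1.80 in dermis, held 4, 1 and 1 matches in its 3 windows. Whether matches go with the levels of the genes was not tested.

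Barcodes with at least 500 UMIs (unique transcript molecules) and at most 10% mitochondrial UMIs were kept, which left 297 epidermal, 875 dermal and 9400 lymph node cells with 2205131, 4630059 and 32906839 UMIs. Median UMIs per cell were 6671, 4726 and 3022. The mitochondrial limit removed 17.5% of barcodes in epidermis and 18.8% in dermis but 0.202% in lymph node. A UMI of Cd3d, Cd3e, Cd3g or Cd4 was found in 91.9%, 97.0% and 99.8% of cells, and a Foxp3 UMI in 39.7%, 47.0% and 7.17%. The skin libraries shared 43 barcodes with each other, and only 1 barcode was shared between dermis and lymph node. In 39 of the shared skin barcodes the deeper copy had at least 5000 UMIs and also held at least 97.2% of the genes seen in the shallower copy, at 11.6 to 23.7 times its depth. Both copies were kept in the values below, and values without them are given beside the results. Kept cells with a shared barcode held 24.7% of epidermal and 5.29% of dermal UMIs, of which the shallower copies made up 0.424% and 0.949% of all UMIs in those libraries. Immediate early genes such as Fos and Jun, which respond within minutes to stimulation and to tissue handling, were summed in CPM, the UMIs of a gene scaled to the library total. The sum was 6793 CPM in epidermis against 15445 in dermis and 1361 in lymph node. Summed marker levels of other cell types were low, with keratinocyte genes at 57.1, 163 and 24.3 CPM and fibroblast genes at 2.72, 7.13 and 0.577 CPM, and the mast cell genes were at 0 in both skin libraries. Genes of dendritic cells and Langerhans cells summed to 450, 505 and 226 CPM, mostly Cd74, with Itgax at 0 in all 3. Genes of CD8 T and NK cells summed to 199, 103 and 73.9 CPM, mostly Nkg7. Endothelial and mural genes were at 44.9, 58.1 and 85.1 CPM, and B cell genes at 24.0, 19.9 and 33.9. The part of any of these cell types in the results was not tested.

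Levels are given as UMIs of a gene summed over the kept cells of a library, in CPM of the library's total. Ratios and levels carry 95% intervals that cover counting error only. With 1 library per tissue there was no replicate and no test between tissues.

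Of the subunits, Nfkb1 and Rel were higher in both skin libraries than in lymph node, Nfkb2 less so, and Rela was at nearly the same level in all 3. Nfkb1, which encodes the p105 precursor of p50, was at 172 CPM in epidermis against 210 in dermis and 71.0 in lymph node. That made epidermis 2.42-fold (interval 2.16 to 2.70) and dermis 2.96-fold (2.74 to 3.19) higher than lymph node. Rel was at 131, 244 and 47.2 CPM in epidermis, dermis and lymph node. Its ratio to lymph node was 2.77 (2.43 to 3.14) in epidermis and 5.17 (4.78 to 5.58) in dermis, the largest among the subunits in both skin libraries. Nfkb2, which encodes the p100 precursor of p52 in the alternative pathway, was at 63.0, 68.7 and 38.2 CPM, and its ratios of 1.65 and 1.80 had intervals above 1.

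Relb, the usual partner of p52, was at 58.5 CPM in epidermis against 73.4 in dermis and 50.6 in lymph node. The interval of its ratio to lymph node held 1 for epidermis (0.959 to 1.38) and lay above 1 for dermis (1.29 to 1.63). Rela, which encodes p65, the main activating subunit of the classical pathway, was at 48.5, 49.0 and 48.0 CPM. Its ratios to lymph node were 1.01 (0.822 to 1.23) in epidermis and 1.02 (0.884 to 1.17) in dermis, so that differences of the size seen for Nfkb1 and Rel lay outside both intervals. Against lymph node, the direction of Rela changed with scaling in both skin libraries, and that of Relb in epidermis only. Rela in epidermis also changed sign with settings other than scaling, 7 of 14 settings in all. With TMM scaling the log2 ratio of epidermis over lymph node was -0.46 for Rela and -0.27 for Relb, and that of dermis over lymph node was -0.34 for Rela and 0.16 for Relb.

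All 4 inhibitors were higher in epidermis and in dermis than in lymph node, with ratios above those of every subunit in the same comparison. Nfkbia encodes IkB-alpha, the inhibitor that holds dimers in the cytoplasm and is resynthesised after each activation. It was at 1429 CPM in epidermis against 2410 in dermis and 367 in lymph node, ratios to lymph node of 3.89 (3.74 to 4.04) and 6.56 (6.39 to 6.73). Nfkbid, which encodes the nuclear protein IkBNS, was at 188, 267 and 33.9 CPM, ratios of 5.54 (4.93 to 6.20) and 7.86 (7.24 to 8.53). The low lymph node level of Nfkbid rested on 1116 UMIs, so its interval was narrow.

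Nfkbiz, which encodes the nuclear IkB-zeta that acts as a coregulator of secondary NF-kB targets, was at 170 CPM in epidermis against 307 in dermis and 29.6 in lymph node. The ratios to lymph node were 5.74 (5.08 to 6.47) and 10.4 (9.57 to 11.3). Tnfaip3 encodes A20, a ubiquitin-editing enzyme that shuts off signalling upstream of the IkB kinases, and it was at 293, 705 and 19.4 CPM. Its ratios of 15.1 (13.5 to 16.9) for epidermis and 36.4 (33.4 to 39.7) for dermis were the largest of the 9 genes. Only 31 of 3067 genes had a larger ratio in epidermis over lymph node and 30 of 3203 in dermis over lymph node.

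**Figure D1:**
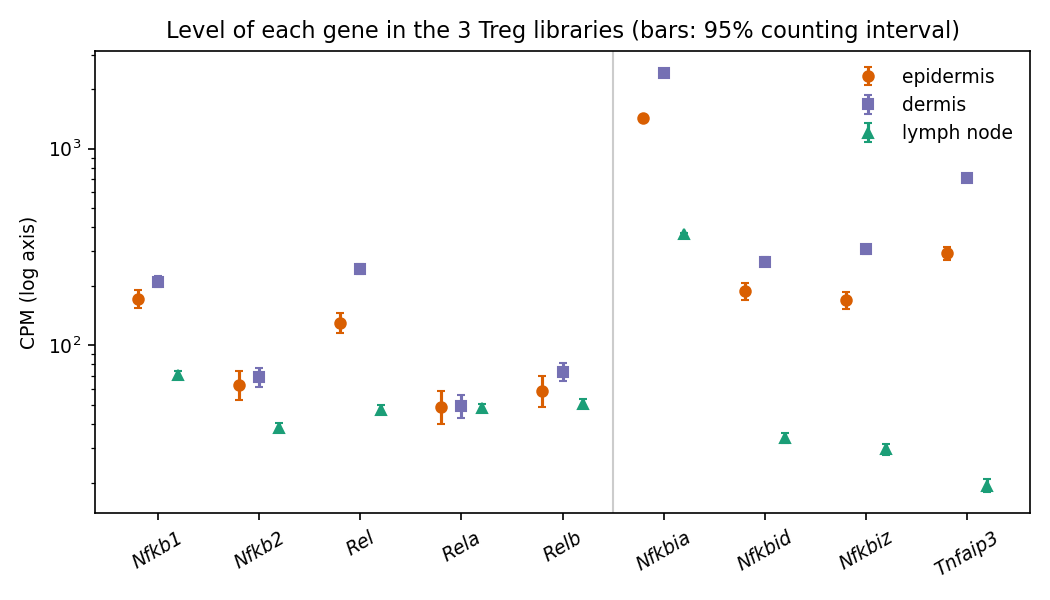
Level of each gene (CPM, log axis) in the epidermal, dermal and lymph node libraries, with subunits left and inhibitors right of the grey line; bars are 95% counting intervals. The 3 points overlap for Rela and lie farthest apart for Tnfaip3, from 19.4 CPM in lymph node to 705 in dermis.

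As a rule of size, a gene was counted as different when its ratio was at least 2-fold and the higher library reached 50 CPM. By this rule 6 of the 9 genes had higher levels in epidermis than lymph node (Nfkb1, Rel and the 4 inhibitors), and 0 were lower. Of the 3067 genes that reached 50 CPM, 18.6% were higher and 3.42% were lower. The same 6 genes were higher in dermis than in lymph node, where 26% of 3203 genes were higher and 9.55% were lower. Rela stayed just under 50 CPM in all 3 libraries and so could not be counted in any comparison, while Nfkb1, Relb and Nfkbia exceeded it in every library. The inhibitors Nfkbid, Nfkbiz and Tnfaip3 reached it through the skin libraries alone, as did Nfkb2 and Rel, so that their being counted is partly set by the limit.

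The median log2 ratio of the 9 genes was 1.47 for epidermis over lymph node and 2.37 for dermis over lymph node, beside 0.14 and 0.15 over all genes at the limit. Both comparisons share the lymph node library. Summed by role, subunit transcripts were 1.85-fold (1.74 to 1.98) higher in epidermis and 2.53-fold (2.42 to 2.64) higher in dermis than in lymph node. Summed inhibitor transcripts, most of them Nfkbia, were 4.62-fold (4.47 to 4.77) and 8.19-fold (8.01 to 8.37) higher.

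TMM scaling moved the median of all genes down by a log2 value of 0.58 in epidermis over lymph node and by 0.50 in dermis over lymph node. With it, 37.8% of the genes counted in epidermis over lymph node were higher, against 84.4% without it, and in dermis over lymph node 41.2% against 73.1%. Under TMM, Nfkb1 and Rel were no longer counted as higher in epidermis, with log2 ratios of 0.80 and 0.99, and Nfkb1 was also lost there under median-of-ratios scaling, at 0.91. The 4 inhibitors stayed past 2-fold against lymph node in all 14 alternative settings that were run for each skin library.

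**Figure D2:**
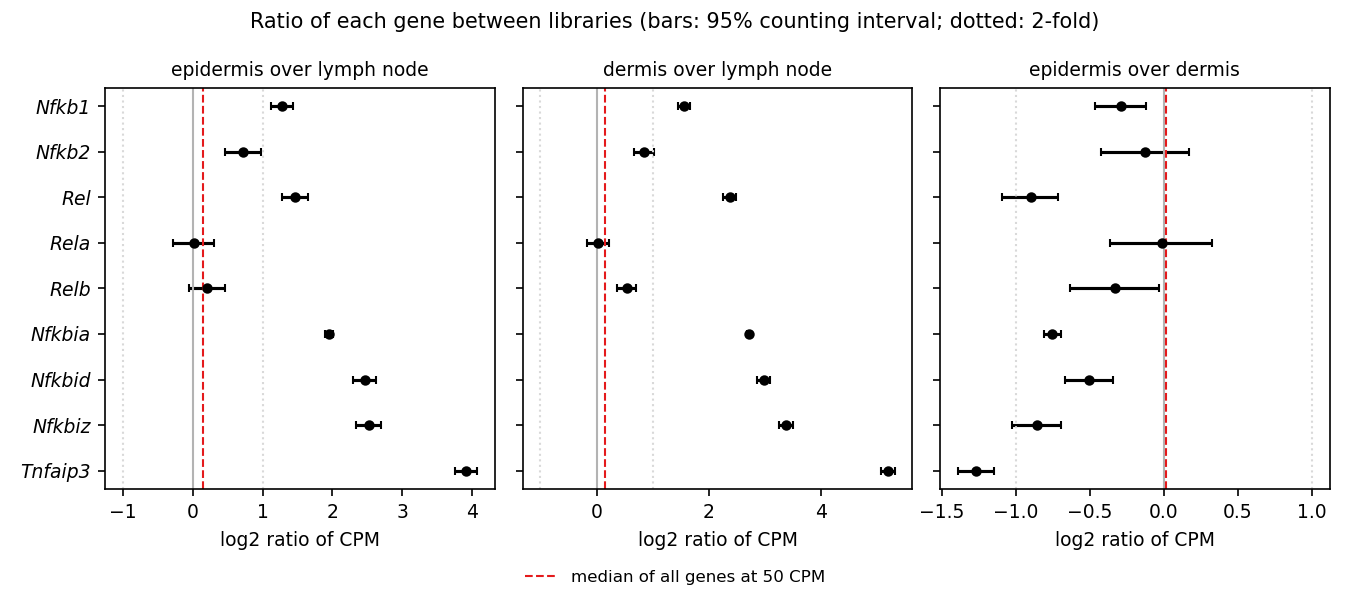
Log2 ratio of CPM for each gene in the 3 comparisons; bars are 95% counting intervals, dotted lines mark 2-fold and the dashed red line the median of all genes at 50 CPM. The inhibitors and Rel lie farthest right of that line in both skin libraries against lymph node, and Tnfaip3 alone lies past 2-fold in epidermis over dermis.

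Between the skin layers, 7 of the 9 genes had lower levels in epidermis with intervals clear of 1, and Nfkb2 and Rela could not be told apart at this depth. Of 3064 genes that reached 50 CPM, 29.6% had such intervals in that direction. Tnfaip3, at 293 CPM in epidermis against 705 in dermis, was 2.41-fold lower (2.21 to 2.62). It was the 1 gene of the 9 counted by the rule of size, where 4.54% of 3064 genes were lower in epidermis and 2.71% were higher. Rel was 1.87-fold lower in epidermis (1.64 to 2.13), Nfkbiz 1.81-fold (1.61 to 2.03), Nfkbia 1.69-fold (1.62 to 1.76) and Nfkbid 1.42-fold (1.27 to 1.59). Relb and Nfkb1 were lower by 1.26-fold and 1.22-fold with intervals clear of 1. The interval held 1 for Nfkb2, from 0.890-fold to 1.34-fold lower, and for Rela, from 0.799-fold to 1.28-fold lower. Markers of cell state also differed between the skin layers. Of the resting Treg list, 6 of 8 genes at the limit were higher in epidermis and 0 were lower (median log2 ratio 2.06), and all 5 cycling genes at the limit were higher (median 2.36). Of 11 effector and tissue Treg genes, 1 was higher and 2 were lower (median -0.83). By the rule of size, the same lists also differed between skin and lymph node. Of the effector and tissue Treg genes, all 11 in epidermis (median log2 ratio 3.15) and all 10 in dermis (4.02) were raised. Of 10 resting Treg genes, 6 in epidermis (median -1.34) and 9 in dermis (-3.55) were reduced, and 0 were raised. All 5 cycling genes were raised in epidermis (median 2.19), against 0 of 1 in dermis. The part of these cell states in the skin against lymph node ratios, and in the difference between the layers, was not tested.

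The median log2 ratio of the 9 genes for epidermis over dermis was -0.51, beside 0.01 for all genes. Without both copies of each shared barcode the median was -0.32 and Tnfaip3 was at a log2 ratio of -1.03, still past 2-fold. Against lymph node, the same exclusion gave log2 ratios of Tnfaip3 of 4.16 in epidermis and 5.19 in dermis, beside 3.92 and 5.19 with the copies kept. When every cell was thinned to 1500 UMIs, so that deep cells weighed no more than shallow ones, Tnfaip3 was at -0.98 in epidermis over dermis and no gene of the 9 was counted there.

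Shares of cells with each inhibitor were also highest in dermis and lowest in lymph node, but the skin layers were not resolved for every gene. Cells were thinned to 1500 UMIs, which kept 262 epidermal, 828 dermal and 9308 lymph node cells. Tnfaip3 was then found in 32.8% of cells from epidermis, 53.3% from dermis and 2.73% from lymph node. Without thinning the shares were 60.3%, 75.9% and 6.06%. Nfkbia was found in 64.5%, 83.7% and 36.2% of thinned cells, so that transcripts of this inhibitor were also common in lymph node Tregs. Nfkbiz was found in 24.0% (19.0 to 29.7), 30.6% (27.4 to 33.8) and 4.31%, and Nfkbid in 22.5% (17.6 to 28.1), 27.9% (24.9 to 31.1) and 3.99%. For Nfkbiz and Nfkbid the intervals of epidermis and dermis overlapped.

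Among the subunits, Nfkb1 was found in 22.1% of thinned cells from epidermis, 23.9% from dermis and 9.62% from lymph node, and Rel in 16.4%, 24.2% and 6.60%. The shares for Nfkb2, Rela and Relb lay between 5.11% and 8.82% in all 3 libraries, and no order was read from them. Transcripts of 3 or more of the 9 genes were found in 33.2% of thinned cells from epidermis, 53.9% from dermis and 4.67% from lymph node. None of the 9 was found in 15.6%, 5.56% and 42.5%. No cell type that lacks these genes was present in the sorted libraries, so no background share from free RNA could be set beside these values.

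To see how the genes varied within a tissue, each library was clustered separately on other genes, leaving the 9 genes, the pathway lists and the immediate early genes out of the clustering. That gave 5 epidermal, 7 dermal and 10 lymph node clusters of at least 20 cells. The clusters were named only where marker lists allowed it, and most dermal clusters stayed unnamed. Dermal cluster 4, with 106 cells, had the keratinocyte genes Krt14 and Krt5 among its top genes, beside Fabp4, Sparcl1, Acta2 and Tagln. Of the resting Treg and interferon marker lists, 7 genes each were raised in it, but none was among its top genes. A lymph node cluster of 15 cells, below the size limit, had the B cell genes Cd79a and Ms4a1 among its top genes. Both sets of cells were kept in the library levels, and their part in those levels was not tested. In lymph node, 7 of the 9 genes were highest in cluster 8, a recent TCR signal-like cluster of 737 cells led by Nr4a1, Marcksl1 and Nfkbid itself. Of the 6721 genes with at least 10 CPM in that library, 14.6% were highest in this cluster. Nfkbid was at 139 CPM there and at 11.3 CPM in cluster 1, where it was lowest, a 12.2-fold range. In the same cluster 8, Relb was at 102 CPM, Rel at 105, Nfkb2 at 76.3 and Tnfaip3 at 40.7, each the highest lymph node value of that gene.

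Rela varied by 1.44-fold over the 10 lymph node clusters, the smallest range of the 9 genes in that library. Nfkb1 was highest in the cycling-like cluster of 89 cells, at 120 CPM (97.8 to 146), which overlapped cluster 8 at 107 (95.9 to 118.5). The interferon-like cluster of 611 cells had the lowest Tnfaip3 level, at 9.69 CPM (5.84 to 15.1) from 19 UMIs. Its interval overlapped that of cluster 1, at 13.6 CPM (10.4 to 17.5), among others.

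In epidermis, 6 of the 9 genes were highest in cluster 1, an effector and tissue Treg-like cluster of 86 cells, and 5 were lowest in cluster 2, a resting Treg-like cluster of 67 cells. Of 7433 genes with at least 10 CPM in epidermis, 14.4% were highest in cluster 1 and 33.3% were lowest in cluster 2. The other 3, Nfkb1, Relb and Tnfaip3, were highest in cluster 5, an unnamed set of 39 cells with a median of 2648 UMIs. That cluster was highest for 35.4% of the 7433 genes. Tnfaip3 was at 598 CPM (465 to 757) in cluster 5 and 489 (437 to 547) in cluster 1. Nfkbid was at 402 CPM in cluster 1 and 32.6 CPM in cluster 2, a 12.3-fold range. Nfkbia was at 2683 CPM in cluster 1 and 361 in cluster 2, so that the resting-like epidermal cells were close to the lymph node library value of 367 CPM. Tnfaip3, by contrast, was at 165 CPM in the resting-like epidermal cluster, above every lymph node cluster. Summed immediate early genes were at 9923 CPM in epidermal cluster 1, 3916 in cluster 2 and 12849 in cluster 5, and their part in these differences was not tested.

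In dermis, cluster 1 with 233 cells was lowest for 5 of the 9 genes, including Rel at 69.7 CPM and Tnfaip3 at 269, where 6.12% of 7191 genes had their lowest level. The dermal cycling-like cluster of 34 cells had the highest Rel, at 419 CPM, a 6.02-fold range over the 7 clusters. Its interval (333 to 521) overlapped that of cluster 2, at 360 CPM (330 to 392). The highest Tnfaip3 level, 1255 CPM, was in cluster 7, an unnamed set of 29 cells with a median of 1573 UMIs. That interval (965 to 1606) overlapped the one of cluster 3, at 931 CPM (870 to 995). For Nfkbiz and Tnfaip3, the lowest skin cluster was above the highest lymph node cluster, at 66.1 against 42.3 CPM for Nfkbiz and 115 against 40.7 for Tnfaip3. The same was true of 5.41% of 8093 genes with at least 10 CPM in a library compared. For dermal clusters alone it held for 5 of the 9 genes, Nfkb1 and the 4 inhibitors, and for 12.8% of 7832 genes.

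**Figure D3:**
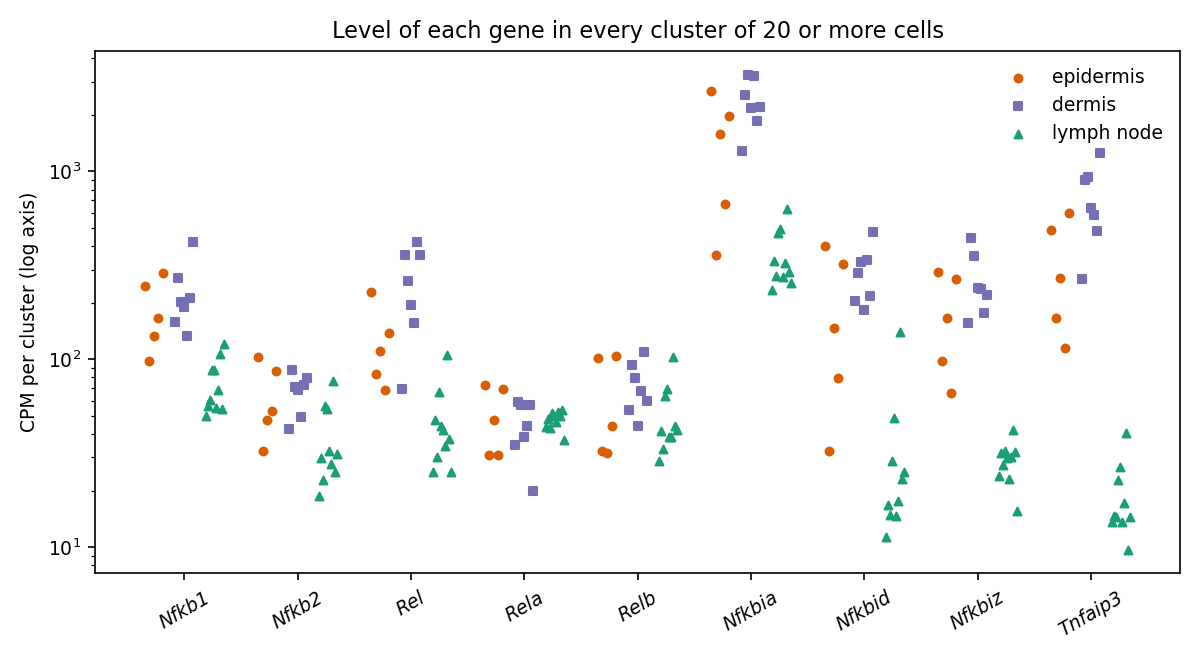
Level of each gene (CPM, log axis) in every cluster of 20 or more cells, 1 point per cluster, by library. Skin and lymph node clusters do not overlap for Nfkbiz and Tnfaip3, overlap in part for the other inhibitors, and are mixed for Rela.

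The likeness of 3304 genes to each of the 9 was described over the same 22 clusters, as the Pearson correlation of log2(CPM + 10) after subtracting each library's mean. The clusters of a library share depth and handling, so these values are descriptive. Tnfaip3 was most like Traf1 (r = 0.94), a signalling adaptor, and Tnip1 (0.90), a partner of A20. Nfkbid was most like Nr4a1 (0.93), Icam1 (0.90) and Irf4 (0.90), and Nfkb2 most like Sh2d2a (0.93) and the receptor genes Tnfrsf4 (0.92) and Tnfrsf9 (0.88). Relb was most like Cd83 (0.86) and Nfkb2 (0.86), and the gene most like Rel was also Nfkb2 (0.80). Nfkbia was most like Dusp4 (0.89) and Ier5 (0.88), and Nfkbiz most like Pnrc1 (0.89). Nfkb1 was most like Aebp2 (0.91), and Rela most like Khdrbs1 (0.84). Among the 9 themselves, Nfkbia and Nfkbid were the most alike pair (0.87), and Rela and Nfkb1 the least (0.10).

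The inhibitors moved with immediate early genes from cell to cell, most of all in epidermis. Each library was divided at the median share of immediate early UMIs per cell, which was 0.601% in epidermis against 1.44% in dermis and 0.117% in lymph node. In epidermis all 9 genes were higher in the cells above the median, 8 of them with intervals clear of 1 (not Nfkb2). Of 3176 genes that reached 50 CPM, 59.2% were higher there and 29.1% had intervals above 1, and the median log2 ratio was 0.13 over these genes and 1.44 over the 9. Nfkbid was at 381 CPM above and 56.4 CPM below it, a 6.76-fold difference, Tnfaip3 at 538 and 126 and Nfkbia at 2531 and 680. Rel was at 209 above and 77.0 CPM below it, whereas Rela was at 60.5 and 40.4 CPM.

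In dermis the same division gave smaller differences, with intervals above 1 for 6 of the 9 genes and for 13.2% of 2962 genes. Nfkbia was at 3016 CPM above and 1805 below the median, Tnfaip3 at 892 and 518, and Rel at 262 and 225, while Nfkb2, Rela and Relb had slightly lower levels above it. In lymph node, Nfkbid was at 51.1 CPM above and 15.8 below, and Tnfaip3 at 25.7 and 12.7. Skin cells below their median were also set against lymph node cells above theirs. In epidermis 5 of the 9 genes were higher in that comparison with intervals above 1, as were 37.6% of 2975 genes. The intervals of Nfkb2, Nfkbid and Rela held 1. Relb was lower in epidermis with its interval below 1, at 45.7 against 60.5 CPM, as were 27.4% of these genes. In dermis 8 of the 9 genes and 46.9% of 3223 genes were higher with intervals above 1. Tnfaip3 in cells below the median was 9.99-fold higher in epidermis and 40.9-fold higher in dermis than in such lymph node cells. The dividing shares themselves differ between tissues, and the part of handling in the skin levels was not tested.

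**Figure D4:**
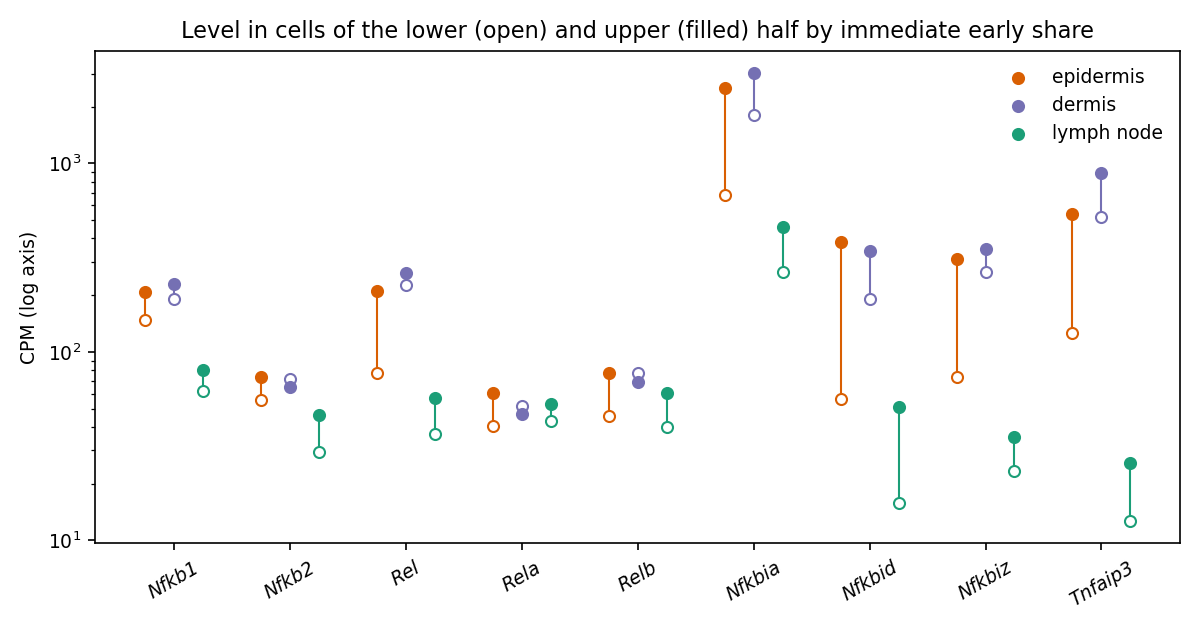
Level of each gene (CPM, log axis) in cells below (open) and above (filled) their library's median share of immediate early UMIs. The lines are longest for epidermal Nfkbid, Nfkbia, Nfkbiz and Tnfaip3, and open skin points for Tnfaip3 lie above the filled lymph node point.

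Both skin libraries held cells with Xist and cells with transcripts of 4 Y-linked genes, so that each had cells of females and of males. In epidermis, 111 cells had Xist but no Y-linked UMI and 101 had the reverse; in dermis these were 723 and 55 cells, and in lymph node no cell had a Y-linked UMI. Of the 111 epidermal Xist cells, 8 were shallower copies of a dermal barcode, and 0 of the 101 Y-linked cells were. In dermis, 11 of the 723 Xist cells and 1 of the 55 Y-linked cells were shallower copies of an epidermal barcode. All 9 genes were lower in Y-linked than in Xist cells of epidermis, by 1.61-fold for Rela to 2.86-fold for Nfkbid, with every interval below 1. Of 3183 genes that reached 50 CPM, 15.7% were lower with such an interval, and the median log2 ratio was -0.02 over these genes and -0.97 over the 9. Nfkbia was at 2104 CPM in epidermal Xist cells and 1051 in Y-linked cells, Tnfaip3 at 418 and 239, and Rel at 212 and 88.8. In dermis only Rel was lower in Y-linked cells with an interval clear of 1, at 110 CPM against 257, as were 8.82% of 3038 genes, and Nfkbia was 1.17-fold higher. Summed immediate early genes were at 9168 CPM in epidermal Xist cells and 5615 in Y-linked cells, and at 15298 and 16425 in dermis. The animal of origin moves with sex in such a division, and the 2 cannot be told apart. A Y-linked UMI was found in 35.0% of cells from epidermis, 8.11% from dermis and 0% from lymph node. The mix therefore also differed between skin and lymph node, and its part in the ratios to lymph node was not tested.

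The comparison between skin layers differed between Xist and Y-linked cells, and the cause was not tested. Cells with both or neither kind of transcript were in neither group. Among Xist cells, the median log2 ratio of the 9 genes for epidermis over dermis was 0.01 and none of the 9 was counted as different, where 3.13% of all genes were higher and 2.88% were lower. Tnfaip3 was 1.65-fold lower in epidermal than in dermal Xist cells (418 against 691 CPM), and Nfkbid was 1.20-fold higher (1.05 to 1.38). Among Y-linked cells the median log2 ratio was -0.57, and the 4 inhibitors were counted as lower in epidermis, Tnfaip3 by 2.97-fold, Nfkbia by 2.64-fold, Nfkbid by 2.37-fold and Nfkbiz by 2.30-fold. In that comparison 7.4% of all genes were lower and 6.77% were higher. Tnfaip3 was the only 1 of the 9 genes that was lower in epidermis in both kinds of cell by more than 1.5-fold.

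**Figure D5:**
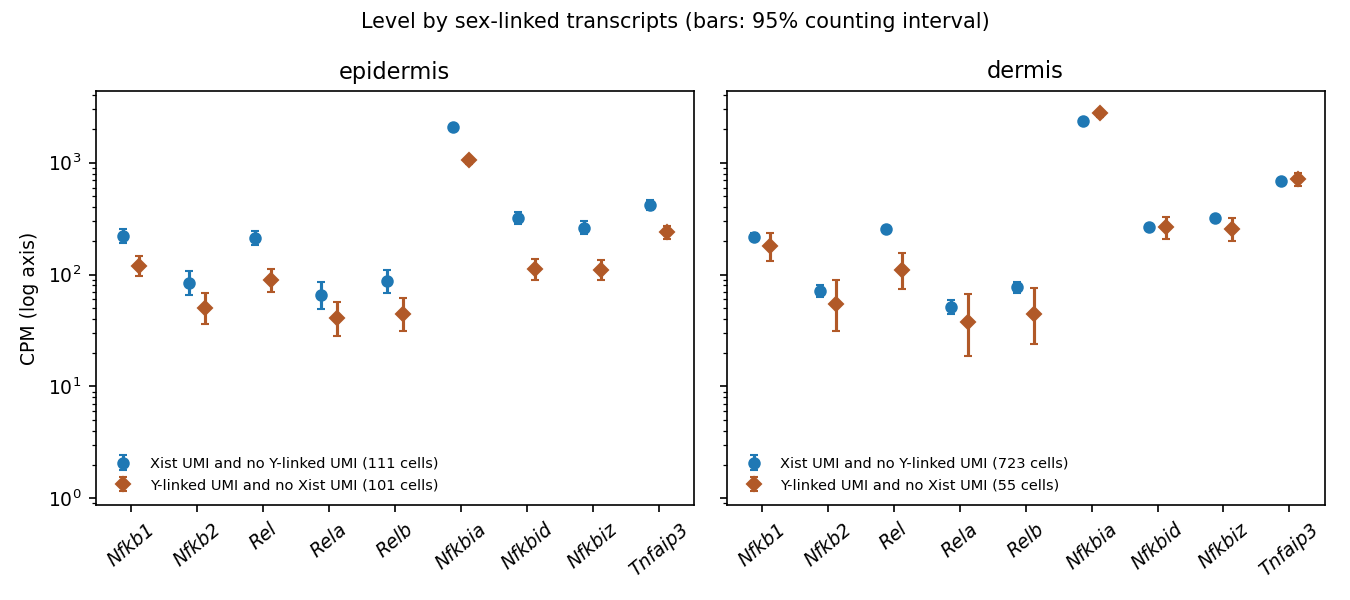
Level of each gene (CPM, log axis) in cells with an Xist UMI but none of the Y-linked genes and in cells with the reverse, for epidermis and dermis; bars are 95% counting intervals. In epidermis each of the 9 Y-linked points lies below its Xist point. In dermis most intervals overlap, while Rel is lower and Nfkbia higher in Y-linked cells.

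The rest of the pathway was followed with 74 other genes in lists of inputs, kinases, adaptors, regulators and targets, of which 44 reached 50 CPM in each skin against lymph node comparison. Of these, 19 were higher and 1 was lower in epidermis than in lymph node, and 23 were higher and 5 lower in dermis. Over all genes at the limit, 18.6% were higher and 3.42% lower in epidermis, and 26% and 9.55% in dermis. Of 6 TNF receptor family inputs at the limit, 2 were counted as higher in both skin libraries and 4 were not counted. Tnfrsf1b, which encodes TNF receptor 2, was at 233 CPM in epidermis against 263 in dermis and 67.6 in lymph node. Tnfrsf4, which encodes OX40, was at 1361, 1458 and 675 CPM. Malt1, the paracaspase that links antigen receptors to the IkB kinases and can cleave A20, was at 94.3, 190 and 10.9 CPM, whereas Prkcq, the kinase upstream of it, was 2.90-fold lower in dermis than in lymph node. The list of IkB kinases and the TAK1 complex had 3 genes at the limit. Of these, Tab2 was higher in both skin libraries, at ratios of 3.21 and 3.65, and Ikbke was 2.38-fold lower in dermis.

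The adaptor genes Traf1 and Birc2 were higher in both skin libraries, at ratios of 2.12 and 3.36 in epidermis and 3.84 and 5.57 in dermis. Of 8 further negative regulators at the limit, Cyld, Otulin, N4bp1 and Zc3h12a were higher in both and Usp18 was lower in both. N4bp1 was at 198 CPM in epidermis against 214 in dermis and 21.9 in lymph node, and Zc3h12a, an RNase also known as regnase-1, at 59.0, 135 and 14.3. Neither of the 2 other IkB genes at the limit was counted as different.

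Of 19 target genes at the limit, 10 were higher and 0 lower in epidermis than in lymph node, and 13 were higher and 2 lower in dermis. The shares of all genes were 18.6% higher and 3.42% lower in epidermis, and 26% and 9.55% in dermis. Gadd45b, a stress response gene, was at 489 CPM in epidermis against 775 in dermis and 25.01 in lymph node, and Icam1, an adhesion molecule, at 123, 128 and 28.9. Ltb and Ccr7 were the targets with lower levels in dermis, Ltb by 3.07-fold. Between the skin layers, 1 of the 42 pathway genes at the limit was higher in epidermis (Tnfrsf13b) and 4 were lower, Malt1, Zc3h12a, Cxcl2 and Cxcl10. Over all genes at the limit in that comparison, 2.71% were higher and 4.54% were lower. Immediate early genes differed in the same directions as the NF-kB inhibitors. Of 14 at the limit, 13 were higher in dermis than in lymph node, beside 26% of all genes. In epidermis, 8 of 14 were lower than in dermis, beside 4.54% of all genes. The part of immediate early genes in the pathway values was not tested.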

How the data were processed

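The deposited values were UMI counts per gene and cell barcode, which the authors made with Cell Ranger on mm10, as the submitters' processing notes list. Per the file headers the skin libraries were run with Cell Ranger 4.0.0, the version for lymph node being not given in the sources used here, and the matrices held 360 epidermal, 1077 dermal and 9419 lymph node barcodes. The 9 genes and all gene lists were chosen with earlier results of these data known.

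Counts were summed over kept cells and scaled to CPM. Levels have exact Poisson and ratios exact binomial-split 95% intervals, computed with scipy 1.17.1; shares come from cells thinned to 1500 UMIs. A gene was counted as different at a 2-fold ratio with 50 CPM in the higher library, with 3 counts standing in for a count of 0. The ratio code was tested on simulated data. Clustering used igraph 0.11.9 and leidenalg 0.10.2 with 1500 variable genes, 20 components, 15 neighbours and Leiden resolution 1. A cluster was named from a marker list only with at least 5 markers raised and a gene of that list among its 10 top genes. TMM factors came from edgeR 4.0.16. Scrublet (scanpy 1.11.5) marked 28 epidermal, 14 dermal and 0 lymph node cells, so it did not work in lymph node, and doublets were left in. Named pathway genes were up to 4 per list past the rule of size, and likeness was given for up to 3 genes per member. Promoters came from RefSeq, GRCm38.p6, and gene spans from GENCODE and RefSeq. Alternatives covered cell filters, scaling, limits and thinning. The raw reads were not analysed here.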

Additional observations from a re-analysis of the deposited data

How the results depend on the processing

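The levels rest on 1 library per tissue, and no paired analysis was possible because each group has 1 sample. Depth limits the epidermal values most, with 107 UMIs of Rela. The 6 genes counted as higher in dermis than in lymph node were counted in all 14 settings, as were the 4 inhibitors in epidermis over lymph node. Values that moved are given by setting. TMM scaling gave median log2 ratios of the 9 genes of 0.99 for epidermis over lymph node and 1.995 for dermis over lymph node, with 8.73% and 15.7% of all genes higher, and 2 of the 9 genes lower in epidermis than in dermis with 2.05% of all genes higher and 6.06% lower. Median-of-ratios scaling gave 1.10 and 2.11, with 10.6% and 18.5% of all genes, and in epidermis over dermis 2 genes lower, with 2.07% of all genes higher and 6.04% lower. Totals without mitochondrial and ribosomal protein genes gave 1.26 and 2.05, with 13.8% and 17.1% of all genes, and 4.13% in epidermis over dermis. Cells with a Foxp3 UMI gave a median of 1.20 for epidermis over lymph node and, for epidermis over dermis, 2 genes lower, with 3.57% of all genes higher and 5.93% lower. Cells at or below the median immediate early share gave medians of 1.26, 2.61 and, for epidermis over dermis, -1.41 with 5 genes lower; 15.5% of all genes were higher for epidermis over lymph node and 3.75% for epidermis over dermis, where 8.08% were lower. Without cells above the 95th UMI percentile, epidermis over lymph node gave 1.68 and 20.4% of all genes. Mean CPM per cell gave medians of 2.25 for dermis over lymph node and -0.32 for epidermis over dermis, with 22.8% of all genes higher in epidermis over lymph node and 3.84% in epidermis over dermis. Cells thinned to 1500 UMIs gave 23.2% of all genes in epidermis over lymph node, and in epidermis over dermis a median of -0.18, 0 genes of the 9 lower, with 3.76% of all genes higher and 4.32% lower. A limit of 20 CPM gave 3.74% in epidermis over dermis. In epidermis over dermis, Xist cells reversed the median to 0.012 with 0 genes counted, and Y-linked cells gave 4 genes lower, with 6.77% of all genes higher and 7.40% lower. Leaving out both copies of each shared barcode, an alternative chosen after seeing the data like that without the shallower copies, moved the median of epidermis over dermis to -0.32. The causes of these shifts were not tested.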

Other observations

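The barcodes left out for more than 10% mitochondrial UMIs, 63 in epidermis and 202 in dermis but 19 in lymph node, also held transcripts of these genes. On totals without mitochondrial genes, Tnfaip3 was at 482 CPM (interval 348 to 652) in the epidermal barcodes left out and at 305 in the cells kept. In dermis it was at 779 CPM (669 to 902) in those left out and 738 in those kept. Nfkb1 was at 505 CPM (367 to 678) against 179 in epidermis and at 337 (266 to 421) against 220 in dermis, and Rel at 299 (195 to 437) against 136 and 385 (309 to 474) against 255. Nfkbia went the other way, at 1125 CPM against 1488 in epidermis and 1969 against 2525 in dermis. The lymph node barcodes left out held 0 UMIs of Tnfaip3, which at their depth allows up to 124 CPM.

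Across single cells, Nfkbia and the summed immediate early genes had a Pearson correlation of log2(count + 1) in thinned cells of 0.51 in epidermis against 0.44 in dermis and 0.15 in lymph node. For Tnfaip3 the same values were 0.38, 0.24 and 0.08. Nfkb2, Rela and Relb had values of at most 0.09 in all 3 libraries. These are descriptions over cells of 1 library each.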
